A study of Mus musculus with 8 samples.

Results

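The 9 genes described here are transcription factors that build the epidermis: Trp63, Klf4, Grhl1, Grhl3, Ovol1, Zfp750, Gata3, Tfap2a and Tfap2c. They were chosen by name, with no measured value in the rule but with earlier results of these data known, and all 9 were among the 23432 gene symbols counted in each library. Their RNA was followed in 8 mouse RNA-seq libraries, 2 in each of 4 groups. At the embryonic stage E16.5, backskin epithelial cells that carry a green fluorescent histone under the Krt14 promoter (K14-H2BGFP+) were sorted by FACS from control embryos and from MOFfl/fl/K14Cre embryos, called MOF cKO. At postnatal day 0.5 (P0.5), whole epidermis was lifted off the dermis with dispase from control pups and from Kansl1fl/fl/K14Cre pups, called Kansl1 cKO. In both knockouts the Cre is driven by the Krt14 promoter, so deletion is limited to cells that use it or descend from such cells, while melanocytes and immune cells of the sheet keep the gene. The controls are labelled only as control. The study used littermates throughout and describes those of MOF cKO as wild-type or heterozygous, without saying which library was which. MOF is the enzyme that acetylates lysine 16 of histone H4, and KANSL1 is a scaffold of NSL, 1 of the complexes in which MOF works. The comparisons ask what loss of the enzyme and loss of that complex each do to the skin.

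The epidermis is renewed by basal cells that leave the basement membrane, stop dividing and mature through spinous and granular layers into the cornified barrier. p63, the product of Trp63, specifies the stratified epithelium and maintains its basal cells. Other factors in the group act mainly as cells leave the basal layer. ZNF750 (mouse Zfp750) acts downstream of p63 and turns on late differentiation genes, KLF4 is required for the barrier, GRHL1 and GRHL3 act on desmosomes and barrier crosslinking, and OVOL1 restrains division as cells differentiate. GATA3 is needed for barrier lipids and for the inner root sheath of the hair follicle, and the AP-2 factors encoded by Tfap2a and Tfap2c act from the early ectoderm onward.

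RefSeq promoter entries matched 5 of the 9 genes (Gata3, Grhl1, Grhl3, Klf4 and Tfap2a), with 7 start sites in all, and none matched Trp63, Ovol1, Zfp750 or Tfap2c. The 250 bases before the start of 4 of them are printed because 3, Grhl1, Grhl3 and Tfap2a, were higher in MOF cKO and the fourth, Klf4, was not called. They are on build GRCm38.p6 (mm10), 5′ to 3′ on the strand of the gene. Capitals mark matches, on either strand, to motifs of AP-2 factors (GCCNNNGGC), of KLF factors (CCACCC) and of RFX factors (GTTGCCA), the last being a half-site of the X-box read by a family that the study examined.
Grhl1, first start, chr12:24572037-24572286, plus strand: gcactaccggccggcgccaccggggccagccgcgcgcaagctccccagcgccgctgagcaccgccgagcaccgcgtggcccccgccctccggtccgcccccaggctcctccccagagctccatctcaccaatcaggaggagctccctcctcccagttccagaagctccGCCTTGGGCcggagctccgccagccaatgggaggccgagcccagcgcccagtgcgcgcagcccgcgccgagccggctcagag
Grhl3, chr4:135573633-135573882, minus strand: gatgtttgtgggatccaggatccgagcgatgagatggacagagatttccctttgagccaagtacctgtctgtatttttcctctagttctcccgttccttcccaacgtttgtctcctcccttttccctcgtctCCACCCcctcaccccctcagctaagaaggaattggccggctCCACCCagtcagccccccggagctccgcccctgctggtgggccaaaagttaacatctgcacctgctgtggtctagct
Tfap2a, first start, chr13:40733796-40734045, minus strand: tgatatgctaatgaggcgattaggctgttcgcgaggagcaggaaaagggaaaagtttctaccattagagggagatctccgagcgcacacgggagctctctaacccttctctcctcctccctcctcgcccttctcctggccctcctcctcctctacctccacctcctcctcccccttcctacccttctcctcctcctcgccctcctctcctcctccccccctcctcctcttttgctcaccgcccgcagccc
Klf4, chr4:55532476-55532725, minus strand: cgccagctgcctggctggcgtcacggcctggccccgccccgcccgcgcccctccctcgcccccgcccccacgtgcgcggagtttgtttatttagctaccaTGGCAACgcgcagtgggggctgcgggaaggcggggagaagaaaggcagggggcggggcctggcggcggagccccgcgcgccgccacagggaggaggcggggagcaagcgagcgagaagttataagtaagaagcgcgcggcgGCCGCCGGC

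The Grhl1 stretch holds 1 AP-2 match, 82 to 74 bases before the start. The Grhl3 stretch holds 2 KLF matches, beginning 118 and 77 bases before the start. The Klf4 stretch holds an AP-2 match in its last 9 bases and an RFX match from 150 to 144 bases before the start. The Tfap2a stretch holds no match. Over 32851 RefSeq promoters the same search found the AP-2 letters in 13.7%, the KLF letters in 28.1% and the RFX letters in 3.66%. The Gata3 promoter, not printed, holds 3 AP-2 and 3 KLF matches, 2 of the latter overlapping, and the second start of Grhl1 holds 1 KLF match. The GRHL motif (AACCGGTT, in 0.116% of all promoters), a GATA motif (AGATAA, 9.99%), a p53 family motif (CATG, 6 bases, CATG, 0.490%) and, on the gene's strand, a TATA box (TATAAA, 7.59%) were in none of the 7 windows. The printed stretches differed in base composition. GC content was 75.6% for Grhl1, 74.0% for Klf4, 60.4% for Tfap2a and 56.0% for Grhl3, against a median of 52.4% over all promoters. Counting CpG pairs, the windows held 27 in Grhl1, 32 in Klf4, 10 in Tfap2a and 8 in Grhl3. These letters describe the windows, and binding was not measured here.

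Depth on genes ran from 22484018 to 27561688 counts at E16.5 and from 9108709 to 19774643 at P0.5, so every member was counted at least 383 times in every library. Values are given as CPM, which are counts brought to a common library size, after scaling by edgeR's TMM factors within each stage. A gene was called where edgeR's quasi-likelihood test gave an adjusted p under 0.01 over all genes tested and the fold change was over 1.5. Pan-epithelial markers such as Epcam, Cdh1 and Krt5 were detected in all 8 libraries (10 of 10 genes), and 5 or 6 of 7 T cell markers had no counts in each E16.5 library. The targeted genes fell little as whole-gene counts. Kat8, which encodes MOF, was at 14.5 and 14.7 CPM in control and at 12.5 and 13.9 CPM in MOF cKO (log2 fold change -0.14 ± 0.18 SE, adjusted p = 0.554). Kansl1 was at 40.7 and 48.2 CPM in P0.5 control and at 31.4 and 30.6 CPM in Kansl1 cKO (log2 fold change -0.52 ± 0.17 SE, adjusted p = 0.242). Counts of a whole gene do not separate deleted exons from the rest, so they check these labels only weakly. The study itself showed loss of the deleted Kansl1 exon by qPCR and RNA-seq. By staining, it found the histone mark made by MOF largely depleted in MOF cKO epidermis at E16.5.

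In sorted epithelial cells without MOF, 4 of the 9 factors rose and none was called lower. Zfp750, Grhl3 and Grhl1, which act in differentiating cells, rose by 1.97-fold to 2.49-fold, and Tfap2a by 1.51-fold. Trp63 was lower by 1.49-fold, just inside the fold threshold, and Klf4, Ovol1, Gata3 and Tfap2c were not called. Among all 13956 genes tested, 10.0% were called higher and 9.59% lower. Of the members, 8 of 9 had a log2 fold change above 0, with a median of 0.39, against a median of -0.02 over all tested genes.

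Zfp750 (chr11:121510978-121519333, minus strand, GENCODE M21 on GRCm38) was at 30.9 and 29.7 CPM in the controls, against 79.5 and 71.5 CPM in the MOF cKO libraries. Both MOF cKO libraries were more than double either control, and the pairs did not overlap. The rise was 2.49-fold (log2 fold change 1.32 ± 0.12 SE, 95% interval 1.03 to 1.60, adjusted p = 0.000556). It was called under all 13 settings tried for this comparison, with a largest adjusted p of 0.00547. Grhl3 (chr4:135541888-135573630, minus strand) was at 40.3 and 33.2 CPM in control and at 87.2 and 76.2 CPM in MOF cKO. These did not overlap either, and the rise was 2.22-fold (log2 1.15 ± 0.14 SE, adjusted p = 0.00124). Grhl1 (chr12:24572283-24617391, plus strand), at 39.1 and 41.5 CPM in control, reached 86.5 and 72.1 CPM in MOF cKO. That is a rise of 1.97-fold (log2 0.98 ± 0.13 SE, adjusted p = 0.00172), again with no overlap between genotypes. When the spread was estimated from 1 fit over all 8 libraries, the adjusted p was 0.0133 for Grhl3 and 0.0178 for Grhl1, and neither was then called.

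Tfap2a (chr13:40715302-40738376, minus strand) was at 156.3 and 151.7 CPM in control and at 237.1 and 228.4 CPM in MOF cKO. Replicates lay close together and the genotypes did not overlap, but the rise of 1.51-fold (log2 0.60 ± 0.10 SE, adjusted p = 0.00369) sat at the edge of the fold threshold. The call was lost with upper-quartile factors, with library size alone, without control replicate 2 and without MOF cKO replicate 1. Its paralog Tfap2c (chr2:172549593-172558622, plus strand) was at 119.9 and 109.5 CPM in control and at 120.0 and 115.4 CPM in MOF cKO. These libraries overlapped, and the 95% interval of the log2 fold change, -0.21 to 0.29, ran on both sides of 0 (adjusted p = 0.807). Within a library, which needs no scaling, there were 1.30 and 1.39 Tfap2a counts for each Tfap2c count in control and 1.98 in each MOF cKO library.

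Trp63 (chr16:25683763-25892102, plus strand) was the member with the most counts at E16.5 and the only one with a negative difference. It was at 708.2 and 632.4 CPM in control and at 483.8 and 417.4 CPM in MOF cKO. Both MOF cKO libraries lay below both controls. The log2 fold change was -0.57 ± 0.12 SE (95% interval -0.85 to -0.30, adjusted p = 0.00870), and the fold of 1.49 kept it from being called. It was called lower with upper-quartile factors (log2 -0.64), with library size alone (-0.88) and without control replicate 2 (-0.65). Gene-level counts do not separate the long isoforms of p63 from the shorter ΔN isoforms that basal keratinocytes use. The study reported robust ΔNp63 staining in MOF cKO epidermis, which is protein and not RNA.

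Klf4 (chr4:55527143-55532466, minus strand) was at 231.7 and 221.9 CPM in control and at 250.6 and 264.6 CPM in MOF cKO (log2 0.18 ± 0.10 SE, adjusted p = 0.186). Ovol1 (chr19:5549136-5560646, minus strand) had 25.1 and 28.9 CPM in control and 30.0 and 40.8 CPM in MOF cKO, and its log2 fold change of 0.39 ± 0.18 SE did not pass (adjusted p = 0.127). Gata3 (chr2:9857078-9890034, minus strand) had 119.7 and 103.1 CPM in control and 152.6 and 135.7 CPM in MOF cKO, at a log2 fold change of 0.37 ± 0.12 SE (adjusted p = 0.0471). The genotypes did not overlap for any of these 3 genes. Over the members, 8 of 9 had no overlap between control and MOF cKO libraries, the exception being Tfap2c, and over all tested genes the share was 72.6%. Exons of Ovol1, Gata3 and Tfap2a are crossed by annotated antisense genes, and Gata3 shares 77 exon bases with 9230102O04Rik. The strand setting of the counting is not given in the sources used here, so reads of such pairs cannot be told apart.

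**Figure D1:**
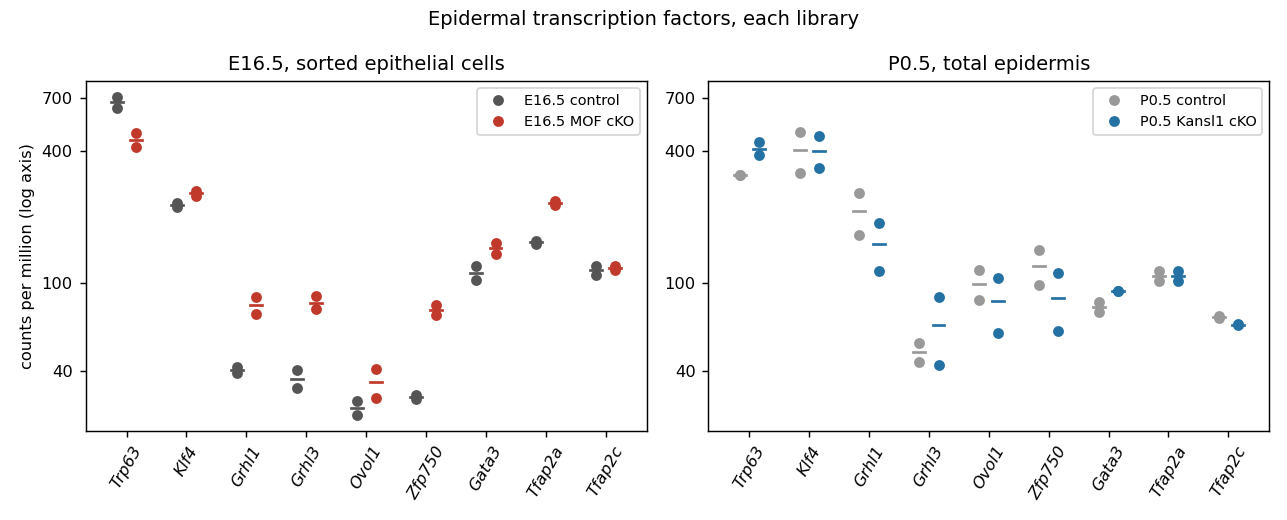
CPM of each factor (log axis) in each library, as a dot, with the group mean as a bar, at E16.5 on the left and P0.5 on the right. At E16.5 the MOF cKO libraries of Zfp750 lie at 71.5 and 79.5 CPM, far above the controls at 29.7 and 30.9 CPM, while at P0.5 the libraries of Klf4, Grhl1, Grhl3, Ovol1, Zfp750 and Tfap2a overlap between genotypes.

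The balance between the factors shifted accordingly within each library. For each Trp63 count there were 0.0436 and 0.0470 Zfp750 counts in the controls, against 0.164 and 0.171 in MOF cKO. The corresponding values for Grhl3 were 0.0569 and 0.0525 in the controls, against 0.180 and 0.183 in MOF cKO. Those for Gata3 were 0.169 and 0.163, against 0.316 and 0.325. Grhl3 and Grhl1 kept a similar balance, with 1.03 and 0.800 Grhl3 counts per Grhl1 count in the controls, against 1.01 and 1.06 in MOF cKO. Scaling matters for the smaller differences. With library size alone in place of TMM factors, the median of all tested genes moved from -0.02 to -0.32 and the share of calls that were higher went from 51.0% to 21.9%. Such a factor shifts all genes of a library alike, so by construction the distances between the members' fold changes stay about the same. With TMM factors Zfp750 stood 1.34 above the median of all genes and Trp63 stood at -0.55 from it.

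Other cells of the skin were also measured at E16.5. The summed level of 12 macrophage genes was 23.2 and 47.7 CPM in control and 102.6 and 143.4 CPM in MOF cKO. Most of the control sums was Cd68, at 18.1 and 41.7 CPM in control and 22.9 and 51.9 CPM in MOF cKO. All 12 genes were above 0, with a median of 3.90 on the log2 scale. Of the 12, 7 were called higher (7 to 10 under the alternatives), among them Lyz2, which encodes lysozyme (log2 6.82), and Tyrobp, an adaptor of myeloid receptors (log2 6.02). Melanocyte genes (7) summed to 19.7 and 51.2 CPM in control and 22.3 and 77.7 CPM in MOF cKO, with none called. The median of these 7 on the log2 scale was 0.48. It was 1.86 when control replicate 2 was left out, with 3 genes called higher, and -0.59 when MOF cKO replicate 2 was. The replicate block called 2 higher, and the other settings called 0 or 1. Fibroblast genes (8) summed to 1778 and 2278 CPM and to 2214 and 2666 CPM, with none called and a median of 1.03 on the log2 scale. Of these 8 genes, 5 were called higher with the replicate block, without the filter on low counts and without control replicate 2, 2 were called higher with DESeq2, and 2 were called lower with library size alone. Of 6 endothelial genes, all above 0 with a median of 1.23, only Pecam1 was called, higher by 1.74 on the log2 scale, and counts of called endothelial genes ran from 0 to 2 over the alternatives, with 0 when control replicate 1 or MOF cKO replicate 2 was left out. Klf4 and Gata3 are also used by some immune cells, and Tfap2a by melanocytes. What part these cells had in the members' levels was not tested. In bulk RNA, more cells of a type and more RNA per cell cannot be told apart, and this holds for every difference given here.

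Genes that differentiating cells use, and genes known as targets of the factors, were read in the same comparison. In the differentiation list, 11 of 18 tested genes were called higher and none lower, with a median log2 fold change of 1.28. Ivl, which encodes the cornified envelope protein involucrin, was at 0.359 and 0.722 CPM in control and at 10.8 and 9.82 CPM in MOF cKO (log2 4.26 ± 0.42 SE, adjusted p = 0.000681). Tgm1, the transglutaminase that crosslinks the envelope and a gene that GRHL3 regulates, rose from 5.80 and 3.68 CPM to 69.6 and 64.1 CPM (log2 3.81 ± 0.22 SE, adjusted p = 0.000175). The summed level of the list was 4396 and 3596 CPM in control and 9639 and 10480 CPM in MOF cKO. Most of these sums was Krt1 and Krt10. Krt1 was at 1549 and 1255 CPM in control and at 4227 and 4691 CPM in MOF cKO. Krt10 was at 2253 and 1813 CPM and at 4177 and 4660 CPM. The median gene of the list was at 6.72 and 6.07 CPM in control and at 22.7 and 17.4 CPM in MOF cKO. Counts of called genes in this list were 11 higher and 0 lower under every scaling tried, with 10 higher without MOF cKO replicate 2 and 9 in 1 fit over 8 libraries. Some late genes stayed low: Lor was at 6.718 and 6.065 CPM in control and 9.035 and 9.231 CPM in MOF cKO, and Hrnr at 1.044 and 2.202 CPM and at 0.4016 and 1.567 CPM. At E16.5 the study saw thinner spinous and granular layers and weaker loricrin staining in MOF cKO. In its single-cell data, cornified envelope genes fell most significantly in suprabasal cells. The study also gave Krt1, Krt10, Klf4 and Dsg1a as examples of genes lower in suprabasal cells of both MOF cKO and a Uqcrq knockout. Those are stained protein and suprabasal cells, not bulk RNA of all sorted cells. In the bulk libraries Krt1 and Krt10 were higher in MOF cKO, as given above. Klf4 and Dsg1a had differences above 0 that were not called. Of the 10 genes listed as GRHL targets, 3 were called higher and none lower (median 0.41): Tgm1, Rab25 (log2 1.54), a small GTPase of apical recycling, and Cldn4, a tight junction claudin that went from 36.9 and 32.5 CPM to 97.2 and 99.9 CPM. The other 7, Tgm5, Dsg1a, Cdh1, Arhgef19, Evpl, Ppl and Esrp1, ranged from -0.80 to 0.52 and none was called. In this list 1 gene was called lower with the replicate block, without the filter on low counts and without control replicate 1, while 4 were called higher without MOF cKO replicate 1 and 2 in 1 fit over 8 libraries.

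Most genes listed as p63 targets did not pass the test. With a different, published list, the study found p63 targets enriched neither among genes higher nor among genes lower in MOF cKO. Of 18 tested, 1 was called higher and 1 lower, with a median log2 fold change of 0.03. Perp, a desmosomal protein, rose from 1037 and 991.4 CPM to 1711 and 1584 CPM (log2 0.70, adjusted p = 0.00203). Fras1, a basement membrane protein, fell from 369 and 283.1 CPM to 176.1 and 108.4 CPM (log2 -1.20, adjusted p = 0.00678). The sign of that median turned with upper-quartile factors (-0.03), with library size alone (-0.27) and without control replicate 2 (-0.04). None of the 18 was called in 1 fit over 8 libraries, and 3 were called lower and none higher with library size alone. In the basal layer list, 1 of 13 rose, the integrin gene Itgb1 (log2 0.70), and 1 fell, the keratin gene Krt15 (log2 -1.26), with a median of 0.14 that turned to -0.17 with library size alone and to -0.02 without control replicate 2.

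Relatives of the members were tested in the same fit. Of 21 listed paralogs, 16 had counts enough to be tested, 1 was called higher and 1 lower, and the median log2 fold change was 0.04. Trp53, the relative of Trp63 that encodes p53, rose from 274.3 and 272.2 CPM to 593.5 and 594.7 CPM (log2 1.12 ± 0.10 SE, adjusted p = 0.000491), while Trp73 did not pass (-0.26, adjusted p = 0.275). Among relatives of Klf4, Klf13 fell (log2 -0.66 ± 0.12 SE, adjusted p = 0.00444), and Klf2, Klf3, Klf5, Klf6, Klf7, Klf9 and Klf10 ranged from -0.54 to 0.72 without passing. Grhl2, the third grainyhead-like gene, was at -0.18 and did not pass (adjusted p = 0.205). Ovol2 was at -0.57 (adjusted p = 0.0910), Gata2 at 0.98 (adjusted p = 0.253) and Gata6 at 0.02. Tfap2b was at 0.07 and Tfap2e at -0.21, and neither passed.

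Of 24 other transcription factors of the epidermis that were tested, 5 were called higher and 3 lower, with a median of 0.07. Ehf, an ETS factor of differentiating epithelia, rose from 2.35 and 3.29 CPM to 13.1 and 12.8 CPM (log2 2.20 ± 0.28 SE, adjusted p = 0.00136). Nfe2l2, which encodes the oxidative stress factor NRF2, rose by 1.13 on the log2 scale. Prdm1, which encodes BLIMP1 of the granular layer, fell from 12.4 and 18.6 CPM to 4.47 and 6.69 CPM (log2 -1.47 ± 0.30 SE, adjusted p = 0.00827), and Barx2, a homeobox gene, fell by 1.01. With library size alone, 2 of these factors were called higher and 6 lower, and with 1 library left out 1 to 4 were called lower, the 1 arising without control replicate 2 and without MOF cKO replicate 1.

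**Figure D2:**
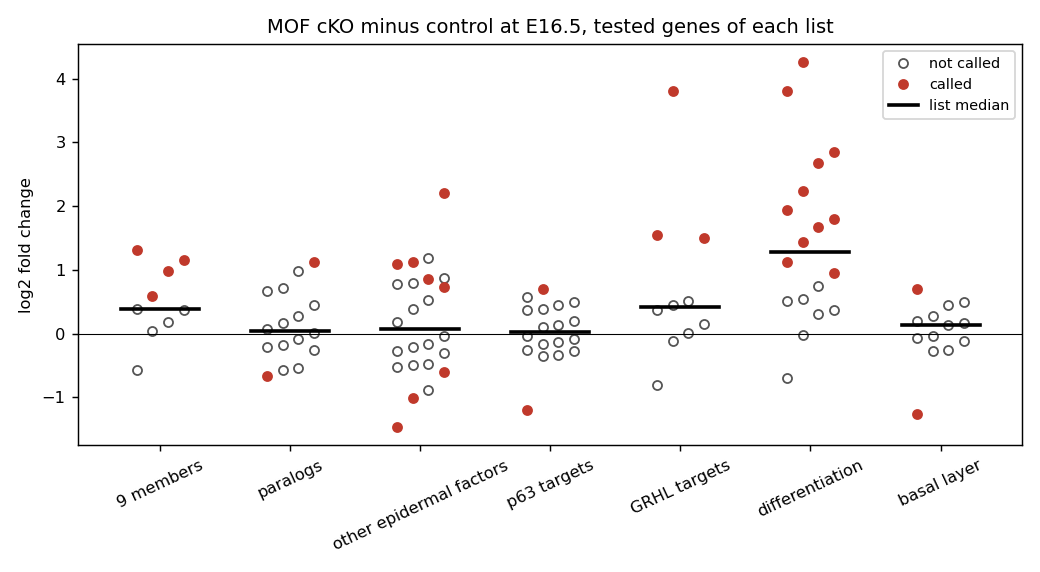
Log2 fold change of every tested gene of 7 lists in MOF cKO against control at E16.5, filled where called, with the list median as a bar. The medians were 0.39 for the 9 factors, 0.04 for their paralogs, 0.03 for p63 targets, 0.41 for GRHL targets and 1.28 for the differentiation list.

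In P0.5 epidermis without KANSL1, none of the 9 factors was called, and none of the 13031 genes tested was called by edgeR (0%), although 2045 genes (15.7%) had an unadjusted p under 0.05 and DESeq2 called 35 higher and 66 lower. Trp63 was the only member with an unadjusted p under 0.05, and its difference was positive here. DESeq2 called no member either. Of the 9 members, 3 had no overlap between genotypes (Trp63, Gata3 and Tfap2c), a share to be read against 48.7% of all tested genes.

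Trp63 was at 312.1 and 310.5 CPM in control and at 439.2 and 384.1 CPM in Kansl1 cKO. Both Kansl1 cKO libraries were above both controls, by 0.40 ± 0.17 SE on the log2 scale (95% interval 0.0069 to 0.80, adjusted p = 0.314 from edgeR). Gata3 was at 74.3 and 82.0 CPM in control and at 91.9 and 92.5 CPM in Kansl1 cKO (log2 0.24 ± 0.15 SE, adjusted p = 0.493). Tfap2c was at 69.5 and 71.0 CPM and at 64.9 and 64.2 CPM (log2 -0.12 ± 0.15 SE, adjusted p = 0.725). Tfap2a overlapped, with 114.2 and 102.8 CPM in control and 113.2 and 102.0 CPM in Kansl1 cKO. Its 95% interval, -0.39 to 0.37 on the log2 scale, ran about equally far on both sides of 0.

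Klf4, Grhl1, Ovol1 and Zfp750 varied more between the libraries of 1 genotype than between genotypes. Grhl1 was at 259.2 and 166.7 CPM in control and at 113.4 and 187.4 CPM in Kansl1 cKO (log2 -0.50 ± 0.30 SE, adjusted p = 0.472). Zfp750 was at 142.4 and 97.9 CPM in control and at 60.9 and 111.1 CPM in Kansl1 cKO (log2 -0.48 ± 0.31 SE, adjusted p = 0.501). For both genes control replicate 1 was highest and Kansl1 cKO replicate 1 lowest, 2.29-fold apart for Grhl1 and 2.34-fold for Zfp750. Ovol1, with 114.9 and 84.2 CPM in control and 59.4 and 106.2 CPM in Kansl1 cKO, had the same highest and lowest libraries. Klf4 was at 487.8 and 319.6 CPM in control and at 334.6 and 471.2 CPM in Kansl1 cKO (log2 -0.0028 ± 0.26 SE). Grhl3 was at 43.9 and 53.1 CPM in control and at 42.2 and 86.7 CPM in Kansl1 cKO (log2 0.40 ± 0.33 SE, adjusted p = 0.586), so that 1 library carried its difference.

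The summed level of the differentiation list split the P0.5 libraries in a like way. It was 101300 and 58330 CPM in control and 56470 and 98370 CPM in Kansl1 cKO, while the basal list summed to between 19570 and 21540 CPM in all 4. Keratins weigh heavily in that basal sum, Krt5 alone being at 8398 to 9251 CPM. The median gene of the basal list was at 291.5 and 333.5 CPM in control and at 408.4 and 364.5 CPM in Kansl1 cKO. The flat sum is thus no measure of basal content. Keratins weigh in the differentiation sum too. Krt1 was at 35390 and 18080 CPM in control and at 20490 and 31020 CPM in Kansl1 cKO. The median gene of the differentiation list was at 951.1 and 729.3 CPM in control and at 857.1 and 1146 CPM in Kansl1 cKO. By that median control replicate 2 was lowest, and by the sum Kansl1 cKO replicate 1 was. Control replicate 1 and Kansl1 cKO replicate 2 were the higher library of their genotype for the differentiation list and for Klf4, Grhl1, Ovol1 and Zfp750. For Tfap2a and Tfap2c the highest library exceeded the lowest by only 1.12-fold and 1.11-fold. Melanocyte genes summed to 473.6 and 531.8 CPM in control and to 1027 and 1143 CPM in Kansl1 cKO, macrophage genes to 194.4 and 231.3 CPM and to 274.2 and 300.3 CPM, and T cell genes to 24.0 and 11.8 CPM and to 25.7 and 25.5 CPM. Fibroblast genes summed to 2472 and 1764 CPM and to 1806 and 1529 CPM, with 6 of 8 below 0 and a median log2 fold change of -1.56. Of the endothelial genes 3 were tested, with a median of -1.28, and all 8 hair germ genes were above 0, with a median of 0.50. No gene of these lists was called. The part of these cells in the members' levels was not tested.

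**Figure D3:**
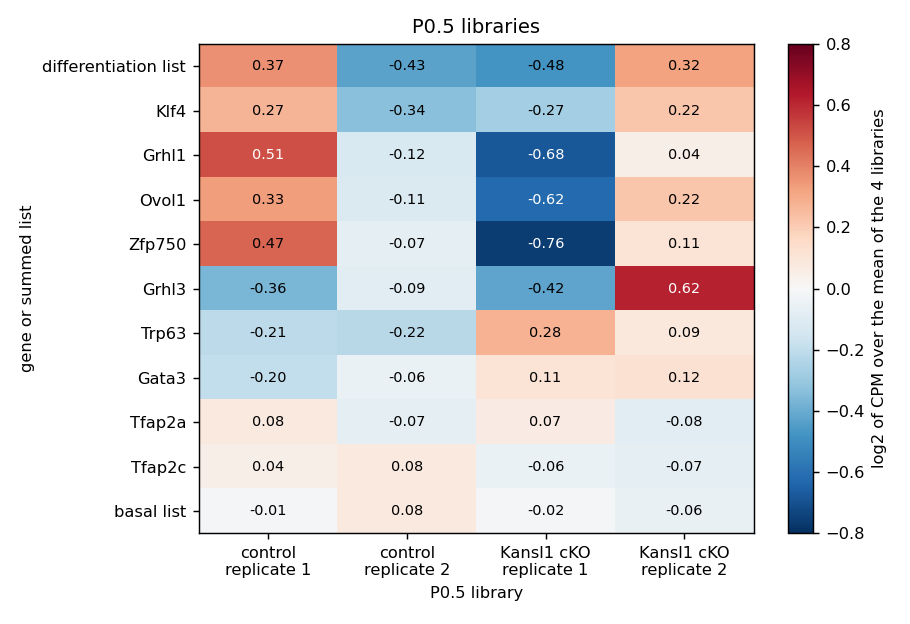
Log2 of each P0.5 library's CPM over the mean of the 4 libraries, for the 9 factors and the summed differentiation and basal lists. Control replicate 1 and Kansl1 cKO replicate 2 are above the mean for the differentiation list (0.37 and 0.32) and for Klf4 (0.27 and 0.22), and the values of Tfap2a and Tfap2c lie between -0.08 and 0.08.

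The lists around the members showed no call in Kansl1 cKO. Median log2 fold changes were 0.0062 for 18 p63 targets, -0.063 for 10 GRHL targets, -0.0042 for 19 differentiation genes, 0.052 for 13 basal genes and 0.18 for 25 other epidermal factors, against 0.012 over all tested genes. Paralogs had the highest of these medians, 0.33, with 12 of 15 above 0. Within that list Trp53 was at 0.50 (adjusted p = 0.325) and Trp73 at 0.65 (adjusted p = 0.213).

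A direct test of the difference between the effects of the knockouts, in 1 fit of all 8 libraries, called none of the members with edgeR at these thresholds, where 2.92% of 14565 genes were called. At an unadjusted p under 0.05, 4 of the 9 members differed, where 31.2% of all genes did. Trp63 had the smallest p, its MOF effect minus its Kansl1 effect being -1.01 ± 0.19 SE on the log2 scale (95% interval -1.44 to -0.57, adjusted p = 0.0133). Zfp750 followed with 1.77 ± 0.37 SE (adjusted p = 0.0179) and Grhl1 with 1.45 ± 0.36 SE (adjusted p = 0.0323). These 3 passed an adjusted p threshold of 0.05, at which 13.8% of genes were called, and DESeq2 called the same 3 at 0.01, where it called 10.3% of genes. Tfap2a differed by 0.58 ± 0.18 SE (adjusted p = 0.0586), and Grhl3, by 0.72 ± 0.40 SE, did not pass (adjusted p = 0.257). The 2 effects were measured at different ages, in cells isolated by different means and on different sequencers, and these cannot be told apart from the deleted gene.

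**Figure D4:**
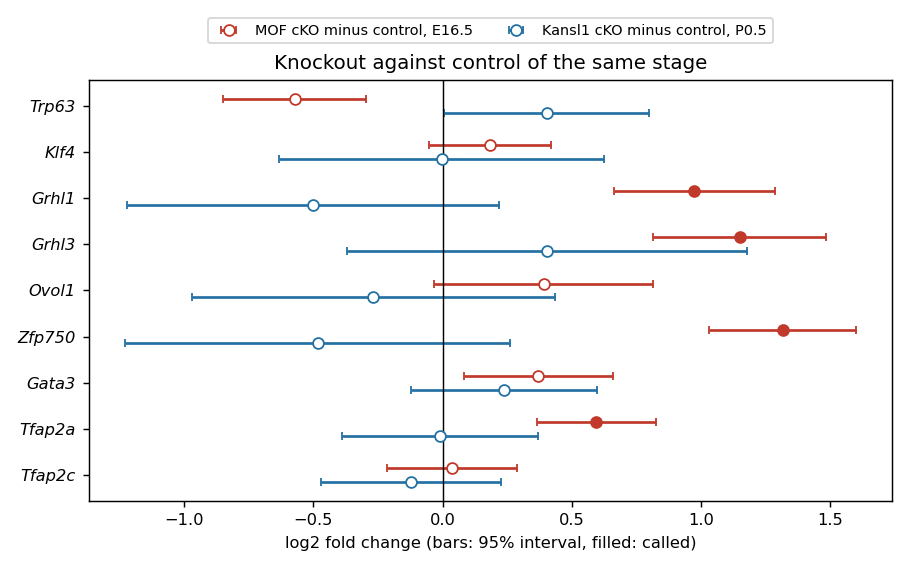
Log2 fold change of each factor in MOF cKO at E16.5 and in Kansl1 cKO at P0.5, each against control libraries of its stage, with 95% intervals and filled dots where called. Trp63 lies at -0.57 in MOF cKO and at 0.40 in Kansl1 cKO, and the called rises are Zfp750 (1.32), Grhl3 (1.15), Grhl1 (0.98) and Tfap2a (0.60).

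The control libraries alone show how these factors differ between sorted fetal epithelium and newborn epidermis. Of the members, 4 were called higher at P0.5 and 1 lower, in a comparison where 19.6% of all genes were called higher and 20.6% lower. Grhl1 rose by 6.13-fold (log2 2.62 ± 0.27 SE, adjusted p = 6.13e-05), Zfp750 by 4.60-fold (log2 2.20 ± 0.27 SE) and Ovol1 by 4.28-fold (log2 2.10 ± 0.28 SE). Klf4 rose by 2.07-fold (log2 1.05 ± 0.21 SE, adjusted p = 0.00268), a call lost without P0.5 control replicate 1 (log2 0.72, adjusted p = 0.0169), without either E16.5 control and with the replicate number as a block. Trp63 fell by 1.85-fold (log2 -0.89 ± 0.14 SE, adjusted p = 0.000567). Grhl3 (0.62), Gata3 (-0.29), Tfap2a (-0.29) and Tfap2c (-0.49) were not called. All 19 tested differentiation genes were called higher at P0.5, with a median of 6.38, as were all 7 melanocyte genes and 11 of 12 macrophage genes. Age, isolation and sequencer cannot be told apart here. The comparison shares its control libraries with both knockout comparisons, so its values stand beside theirs and not as separate support.

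Levels of different genes were compared per kilobase of annotated exon, on a scale shared by all 8 libraries. The length merges all annotated exons of a gene (8391 bases for Trp63, 3049 for Klf4) and can exceed that of its transcripts. The order between genes rests on this length. Before division, Trp63 had a mean of 415.7 CPM in MOF cKO and Klf4 one of 237.6 CPM. In E16.5 control, Trp63 (73.6 CPM per kb) and Klf4 (68.6) were highest and their libraries overlapped. Tfap2a (28.9), Tfap2c (28.7) and Gata3 (25.8) followed, each overlapping the next. Grhl3 (12.2) and Zfp750 (8.64) came below them, and Ovol1 (7.14) and Grhl1 (6.71) overlapped at the bottom. In MOF cKO the order changed at the top, with Klf4 (77.9) above Trp63 (49.5) and no overlap between them, and Tfap2a (43.8) now clear of Gata3 (33.4) and Tfap2c (29.5). Grhl3 (27.0) and Zfp750 (21.5) stayed below these, above Grhl1 (13.2) and Ovol1 (9.36).

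In P0.5 control Klf4 (141.8 CPM per kb) stood alone at the top. Grhl1 (41.2), Zfp750 (39.8) and Trp63 (39.8) came next and could not be ranked beyond the spread of their libraries. Ovol1 (30.6) followed, clear of Trp63 but overlapping Grhl1 and Zfp750, and then Tfap2a (23.7). Gata3 (21.0), Tfap2c (20.5) and Grhl3 (18.7) overlapped with their neighbours at the bottom. In Kansl1 cKO Klf4 (144.7) was again highest and Trp63 (53.8) second, without overlap. From Grhl1 (29.7) down to Tfap2a (24.1), the 6 genes in between overlapped from neighbour to neighbour. Tfap2c (19.2) had the lowest mean, but its libraries lay within the spread of Ovol1 and of Grhl3.

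**Figure D5:**
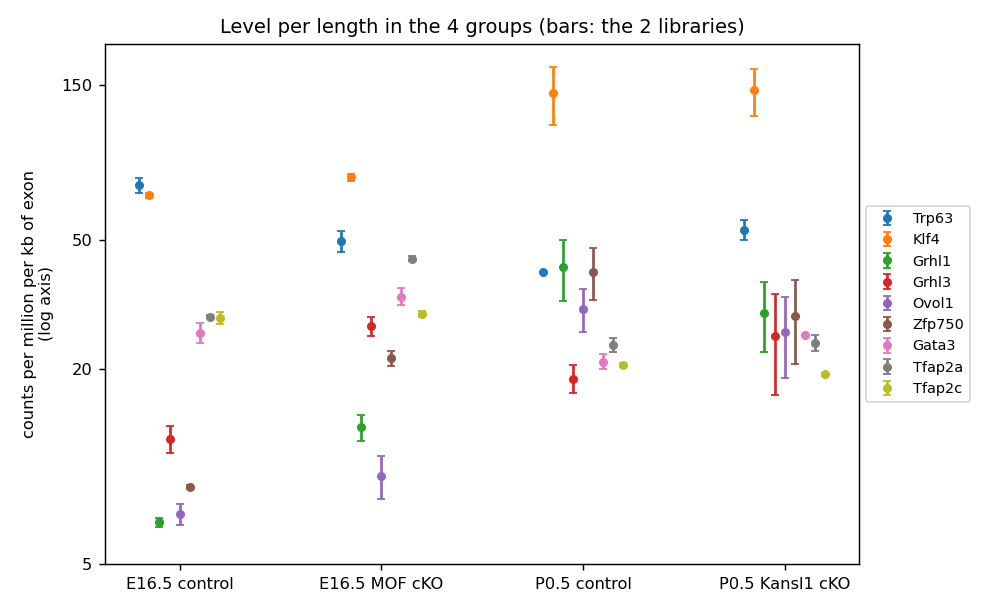
Level of each factor per kilobase of exon (CPM per kb, log axis) in the 4 groups, dots being the means of 2 libraries and bars reaching to both libraries. Klf4 rises from 68.6 in E16.5 control to 141.8 in P0.5 control, and Grhl1 from 6.71 to 41.2, while Trp63 goes from 73.6 to 39.8.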

How the data were processed

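RNA was sequenced from 8 libraries, 2 for each of 4 groups given by the labels. The authors deposited raw counts of reads per gene, without normalization, made with HTSeq on mm10. The submitters' processing notes name TopHat2 as the aligner and the article's methods name HISAT2. The strand setting is not given in the sources used here. Rows that name no gene held 21.1% to 26.0% of the counts and were left out.

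Low counts were removed with filterByExpr, TMM factors gave the scaling, and the quasi-likelihood test of edgeR 4.0.16 was run in R 4.3.3 with Benjamini-Hochberg adjustment over all tested genes. Each knockout was fitted with the controls of its stage. The difference between knockouts and the comparison of controls came from 1 fit of 8 libraries. Calls needed an adjusted p under 0.01 and a fold over 1.5. SE denotes the standard error, and 95% intervals use the moderated degrees of freedom. The study's methods describe 2 pairs of control and knockout samples for each stage, with littermate controls, but do not say which libraries share a litter or whether a library came from 1 animal, so p-values measure the spread between 2 libraries. Replicates of a group differed by more than counting error in all 4 groups. The scripts were tested on simulated data.

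Alternatives were DESeq2 1.42.0, other scalings, no filter, an adjusted p of 0.05, 1 fit over 8 libraries, the replicate number as a block and leaving out each library. A crossed block for Kansl1 cKO was chosen after seeing the data. The members and gene lists were chosen with earlier results of these data known. All members and tested paralogs are named. Of each other list, the 2 largest rises and 2 largest falls in MOF cKO are named among called genes without overlap between genotypes, and of the GRHL targets the third call as well, chosen after its value was seen, as were examples without values. Outside this rule, Cd68, Lor, Hrnr, Krt1, Krt10 and Krt5 are also given with values. Genes with a like profile were the 2 with the highest Pearson correlation of log2 CPM to each member over 8 libraries, among 12762 genes with a mean of at least 1 CPM; for Grhl1, only 1 of the 2 is reported here. Coordinates and exon lengths are from GENCODE M21 (GRCm38), which held 92.9% of the symbols, and promoters from RefSeq.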

Additional observations from a re-analysis of the deposited data

How the results depend on the processing

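Of 550 values recomputed, 493 kept their direction and their side of the threshold, or stayed within 1.5 times for counts. The number of members called in MOF cKO was 4, ranged from 3 to 4 with 1 library left out and was 2 in 1 fit over 8 libraries. No member was called in Kansl1 cKO with any library left out (0 to 0). Members with different effects in the knockouts numbered 0 in edgeR, 3 with DESeq2, 3 without the filter, 3 at an adjusted p of 0.05, 1 with library size alone, and 0 to 2 with 1 library left out, the 2 (Grhl1 and Zfp750) arising without Kansl1 cKO replicate 2. Between controls, 5 members were called, 8 with library size alone and 4 to 5 with 1 library left out. Over all genes, edgeR and DESeq2 called 0 and 101 in Kansl1 cKO, and 426 and 1496 for the difference between knockouts. No value that changed direction was called. In MOF cKO, Tfap2c turned to -0.028 with upper-quartile factors and -0.27 with library size alone and ran from -0.025 to 0.10 with 1 library left out, and Klf4 turned to -0.12 with library size alone. In Kansl1 cKO, Klf4 turned to 0.011 without the filter, 0.0079 with the replicate block, 0.030 in 1 fit and 0.0080 with the crossed replicate block, and Tfap2a to 0.0027 without the filter and 0.022 in 1 fit. With 1 P0.5 library left out, Klf4 ran from -0.31 to 0.33, Tfap2a from -0.12 to 0.067, Ovol1 from -0.74 to 0.060 and Grhl3 from -0.20 to 0.80. For the difference between knockouts, Klf4 turned to -0.070 with library size alone and ran from -0.18 to 0.41 with 1 library left out, and Gata3 and Tfap2c turned to -0.12 and -0.093 with library size alone. The cause was not tested. The study describes pairs with littermate controls, but nothing ties the replicate numbers to a litter or day. Their deviations from the group means correlated at 0.206 at E16.5 and -0.202 at P0.5. With the replicate block, 4 members were called in MOF cKO and 0 in Kansl1 cKO. The crossed pairing of the P0.5 libraries also called 0 members. The number of libraries limits the precision: at P0.5 the standard error of a log2 fold change ran from 0.15 for Tfap2c to 0.33 for Grhl3.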

Other observations

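Other epithelial genes were measured beside the 9 factors in MOF cKO at E16.5. Of 6 keratins found in periderm, the transient outer layer of the fetal skin, 1 was called higher and 1 lower. Krt6a, also a keratin of stressed epidermis, rose by 6.52 on the log2 scale (adjusted p = 2.29e-06 in edgeR), and Krt8, a simple epithelial keratin, fell by 2.47. Of 8 hair germ genes, 3 were called lower and none higher, with a median log2 fold change of -0.79. Lhx2, a homeobox factor of hair follicle progenitors, fell by 3.18, and Shh, the hedgehog ligand of the hair placode, fell by 2.59. Of 10 genes shared by epithelia, 3 were called higher and none lower, with 5 higher by DESeq2 and 1 with library size alone or in 1 fit over 8 libraries. Their median of 0.51 was 0.21 with library size alone. Sfn, which encodes the 14-3-3 protein stratifin, rose by 1.23, and Perp by 0.70. The 1 tested T cell gene was not called.

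Over the 8 libraries, the genes with profiles most like those of the members were as follows, as a description of libraries that fall into 4 groups at 2 stages. Trp63 was followed most closely by Rdx (Pearson r of log2 CPM 0.983) and Chpt1 (0.979), Klf4 by Tmem120b (0.992) and Zranb1 (0.992), and Grhl1 by Ndrg2 (0.995). Grhl3 had the lowest values, 0.963 with 5730559C18Rik and 0.950 with Pik3cb. Ovol1 was followed by Faf1 (0.994) and Hsd17b7 (0.993), Zfp750 by Tmem43 (0.989) and Slc19a2 (0.988), and Gata3 by Far1 (0.993) and Panx1 (0.989). Tfap2a was followed by Pvr (0.995) and Mt1 (0.992), and Tfap2c by Lsm6 (0.995) and Zdbf2 (0.994). Stage and isolation differ between the groups and their part in these values was not tested.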
